A study of Mus musculus with 2 samples.

Results

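The genes described here are the clustered Zfp zinc finger genes of the mouse: protein-coding genes on autosomes whose symbol is Zfp followed by a number, and whose gene record begins within 100 kb of the beginning of another such gene. GENCODE M21, the annotation of the mm10 assembly that was used, held 198 such genes among its 20807 autosomal protein-coding genes. They formed 52 clusters on 13 chromosomes, and the other 159 of 357 Zfp plus number genes, called solitary here, had no such neighbour. The rule that chose them uses name and position, excepts 1 gene by name and uses no measured value. Chromosome 7 held 71 of them in 15 clusters, chromosome 17 held 32 in 8 clusters and chromosome 13 held 21 in 3 clusters. The largest cluster had 15 genes, 13 clusters had 5 or more, and 25 clusters were pairs.

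Most genes of this kind encode proteins with a row of C2H2 zinc fingers, each finger contacting a few bases of DNA, and many also carry a KRAB domain. A KRAB domain recruits TRIM28, also called KAP1, which brings the histone methyltransferase SETDB1, HP1 proteins and histone deacetylases, and many such proteins silence transposons in early embryos. The genes lie in clusters because they multiplied by tandem duplication, so neighbours often resemble each other in sequence.

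The data were DNase-seq of frontal cortex, an assay in which nuclei are cut briefly with DNase I and dense cuts mark open chromatin. Both libraries came from male B6CASTF1/J mice, the F1 hybrid of the C57BL/6J and CAST/EiJ strains, aged 14 days. Each library is labelled as tissue of 3 males, the 2 libraries are separate tissue samples with 1 shared donor number, and they form 1 group. There was no second condition, so no test between conditions was possible, and the difference between the libraries is the only measure of error, which may be technical. Replicate 1 had 75753 peaks and replicate 2 had 77035, and the number of reads behind them is not stated. The promoters of 5 of 6 listed excitatory neuron genes and 3 of 3 GABAergic neuron genes had a peak in each library, against 1 of 3 each for astrocytes, microglia and endothelium, 0 of 2 for oligodendrocytes and 0 of 3 for genes of tissues outside the forebrain. A tissue sample mixes cell types, so a lower peak can mean fewer cells with open DNA or less open DNA per cell, and these cannot be told apart.

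A promoter is called open here where a peak lies within 1 kb of an annotated start site of the gene, and its height is the authors' signal value of the tallest such peak, scaled per library. Of the 198 clustered Zfp genes, 177 (89.4%) were open in both libraries, against 81.1% of the solitary Zfp genes and 60.8% of all autosomal protein-coding genes. A single member, Zfp663 on chromosome 2, was open in 1 library alone, with a height of 0.717 in replicate 1. The other 20 members had no promoter peak in either library. In 174 of the 177 open members the tallest peaks of the libraries overlapped. In the other 3, Zfp24, Zfp260 and Zfp316, they lay at different places of the gene's promoter windows.

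Sequence upstream of the start is shown for 4 members that differ in height or in call. Zfp444 had one of the tallest promoters, Zfp933 was the one open member on chromosome 4, and Zfp982 and Zfp985 on chromosome 4 had no promoter peak. These 4 were picked after their values were seen. The 200 bases before the start are given in mm10, 5′ to 3′ on the strand of the gene, with each CG pair in capitals. They lie at chr7:6172026-6172225 (plus), chr4:147848367-147848566 (minus), chr4:147492217-147492416 (plus) and chr4:147553077-147553276 (plus), and none of them overlaps an annotated exon.
Zfp444: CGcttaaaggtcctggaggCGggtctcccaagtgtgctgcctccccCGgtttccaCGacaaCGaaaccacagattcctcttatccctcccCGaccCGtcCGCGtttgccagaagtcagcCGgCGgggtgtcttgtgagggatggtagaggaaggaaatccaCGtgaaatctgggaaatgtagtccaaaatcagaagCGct
Zfp933: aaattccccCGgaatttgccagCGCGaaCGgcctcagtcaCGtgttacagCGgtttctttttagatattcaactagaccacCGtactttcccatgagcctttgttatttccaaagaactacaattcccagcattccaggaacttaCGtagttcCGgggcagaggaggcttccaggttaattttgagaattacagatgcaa
Zfp982: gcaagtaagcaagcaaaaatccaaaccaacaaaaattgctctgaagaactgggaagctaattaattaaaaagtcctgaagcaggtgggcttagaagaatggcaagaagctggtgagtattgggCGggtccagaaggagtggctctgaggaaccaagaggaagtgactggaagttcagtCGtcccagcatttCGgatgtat
Zfp985: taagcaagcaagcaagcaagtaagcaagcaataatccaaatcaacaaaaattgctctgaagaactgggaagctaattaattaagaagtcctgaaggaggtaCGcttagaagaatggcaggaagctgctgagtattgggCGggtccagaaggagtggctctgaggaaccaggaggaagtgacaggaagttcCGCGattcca
Zfp444 had 13 CG pairs in this stretch and Zfp933 had 9, against 3 in Zfp982 and 4 in Zfp985. The median over the 177 open members was 8 pairs (lowest 0, highest 28), and over the 20 without a peak it was 3 (lowest 1, highest 16). These bases lie before the 5′ end of the gene record, while a peak near any annotated start counts as open. Zfp982 and Zfp985, neighbours in 1 cluster, were identical at 174 of 215 aligned positions (80.9%). The other 5 of the 6 pairs of these sequences were identical at 45.2% to 48.6% of positions. Other members were not aligned.

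Members with a peak covered a wide range of heights, with fewer at the tall end than among genes at large. The median height of the open members was 2.87 in replicate 1 and 2.62 in replicate 2, against 3.39 and 3.29 in open solitary Zfp genes and 3.09 and 3.03 in all open autosomal genes. In the mean of both libraries the upper quartile was 3.93 for members and 5.6 for all open genes, while the lower quartiles were 1.52 and 1.58. A mean height of 8 or more was found in 7 open members (3.95%), against 9.3% of open solitary Zfp genes and 12.5% of all open genes. Heights from 2 to 4 were held by 41.8% of open members, against 30.2% of open solitary genes and 28.3% of all open genes. Over the 174 members with overlapping peaks the libraries had a Spearman rho of 0.967 and a Pearson r of 0.967 on the log2 scale, as a description across genes of the same libraries. Taken as replicate 2 over replicate 1, the log2 ratio had a median of -0.06, and 95% of the members lay between -0.56 and 0.44.

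The tallest promoter was that of Zfp846 on chromosome 9, at 12.9 in replicate 1 and 12.5 in replicate 2, and its peak in replicate 1, chr9:20581281-20581540, spans the start of the gene record at position 20581291. Zfp444 on chromosome 7, a SCAN domain gene, followed at 12.7 and 12.6, so the order of the 2 is within the difference between libraries. Zfp865 stood at 11.5 and 11.1 and Zfp78 at 10.8 and 11.2, and the peak of Zfp865 also lay in the promoter window of its coding neighbour Ccdc106. Below them came Zfp446 (9.46 and 10.3), Zfp809 (8.96 and 9.43) and Zfp787 (8.23 and 8.91). Zfp809 is known for silencing Moloney leukaemia virus and related VL30 elements through their primer binding site. Zfp961 (6.9 and 7.84), Zfp667 (7.91 and 6.81) and Zfp524 (6.11 and 7.24) closed the 10 tallest. Zfp524 shares its peak window with Fiz1 and Gm44973, and 20 members in all had a tallest peak within 1 kb of a start of another protein-coding gene. The 10 tallest came from 7 clusters, and 7 of the genes lay on chromosome 7. The largest gap between libraries was that of Zfp994 on chromosome 17, at 8.51 in replicate 1 and 4.82 in replicate 2 (log2 ratio -0.82), and 52.6% of the 31-base words of its promoter window occur elsewhere in mm10.

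At the low end the lowest promoter open in both libraries was that of Zfp947 on chromosome 17, at 0.215 in replicate 1 and 0.342 in replicate 2. Zfp54 stood at 0.394 and 0.467, Zfp459 at 0.633 and 0.492, Zfp85 at 0.585 and 0.609, Zfp872 at 0.466 and 0.784 and Zfp456 at 0.693 and 0.801. Zfp947, Zfp54 and Zfp872 had no promoter peak common to both libraries in the shorter peak lists. All 6 stood below the median of all autosomal peaks, 0.86 in replicate 1 and 0.809 in replicate 2. Of a short list of members with a known role, chosen by hand and not complete, those other than Zfp809 lay in the middle or the lower range. Zfp568, which represses a placental promoter of Igf2, had heights of 3.27 and 2.95. Zfp110, which encodes an interactor of the neurotrophin receptor p75, had 1.7 and 1.93. Zfp708, which binds the transposon family RMER19B, had 1.24 and 0.926, but no peak near the 5′ end of its gene record. Zfp445, which protects imprinted regions and was added after its values were seen, had 1.28 and 1.48.

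**Figure D1:**
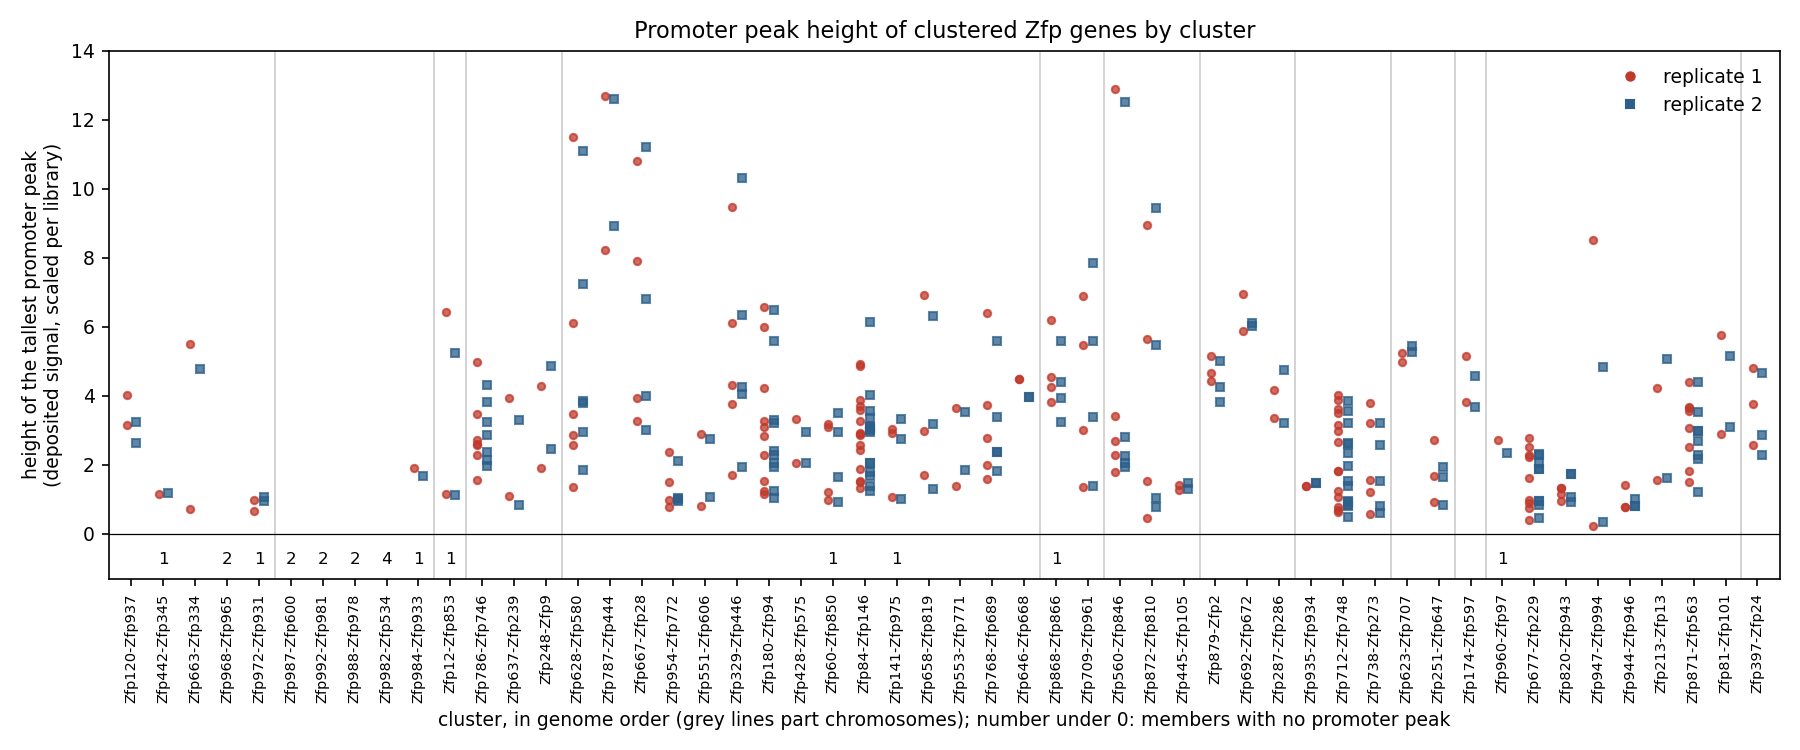
Height of the tallest promoter peak (y axis, deposited signal) of each clustered Zfp gene in replicate 1 (circles) and replicate 2 (squares), by cluster in genome order, with the number of members without a promoter peak written below 0. The clusters of chromosome 4 hold 11 of the 20 members without a peak, and the points above 8 lie on chromosomes 7, 9 and, in replicate 1 alone, 17 (Zfp994).

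All members were open in both libraries in 38 of the 52 clusters, which together hold 158 genes, 9 clusters were mixed and 5 had no open member. The largest clusters were among the complete ones. All 15 genes of the Zfp84 to Zfp146 cluster on chromosome 7 (chr7:29768552-30169750) were open, and their mean heights ranged from 1.29 for Zfp74 (1.34 in replicate 1 and 1.24 in replicate 2) to 5.49 for Zfp566 (4.85 and 6.13). All 14 genes of the Zfp712 to Zfp748 cluster on chromosome 13 were open, between 0.563 for Zfp459 and 3.93 for Zfp87 (4.01 and 3.84). All 10 genes from Zfp180 to Zfp94 on chromosome 7 were open, with Zfp180 the tallest (5.98 and 6.48) and Zfp109 the lowest (1.16 and 1.04). The same held for the 9 genes from Zfp677 to Zfp229 and the 8 from Zfp871 to Zfp563, both on chromosome 17, and for the 7 from Zfp786 to Zfp746 on chromosome 6. Zfp51 (2.78 and 2.3) was the tallest and Zfp54 the lowest of the 9, Zfp563 (3.55 and 4.41) and Zfp811 (1.49 and 1.21) were the ends of the 8, and Zfp956 (4.98 and 4.32) and Zfp777 (1.55 and 1.96) were those of the 7. Heights differed within a cluster even where every member was open.

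Chromosome 4 was the opposite case. Of its 12 members, in 5 clusters, Zfp933 alone was open, at 1.9 in replicate 1 and 1.67 in replicate 2. The members without a peak there were Zfp987, Zfp600, Zfp992, Zfp981, Zfp988, Zfp978, Zfp982, Zfp985, Zfp979, Zfp534 and Zfp984. On chromosome 2, 6 of 11 members were open in both libraries and Zfp345, Zfp968, Zfp965 and Zfp972 in neither. Away from chromosomes 2 and 4, 170 of 175 members (97.1%) were open. These chromosomes were set apart for their members without a peak, so the higher share elsewhere follows from that choice. Of autosomal protein-coding genes on all chromosomes, 60.8% were open. The 5 exceptions among the 175 were Zfp626 and Zfp977 on chromosome 7, Zfp853 on chromosome 5, Zfp869 on chromosome 8 and Zfp97 on chromosome 17. The deposited track of bases with a cut rate at a false discovery rate below 0.05 listed no base within 1 kb of the starts of 18 of the 20. It listed 3 bases in replicate 1 for Zfp345 and 12 bases in replicate 2 for Zfp853. Listed bases were rare in all such genes: of 7286 autosomal protein-coding genes without a peak in either library, 228 had any.

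**Figure D2:**
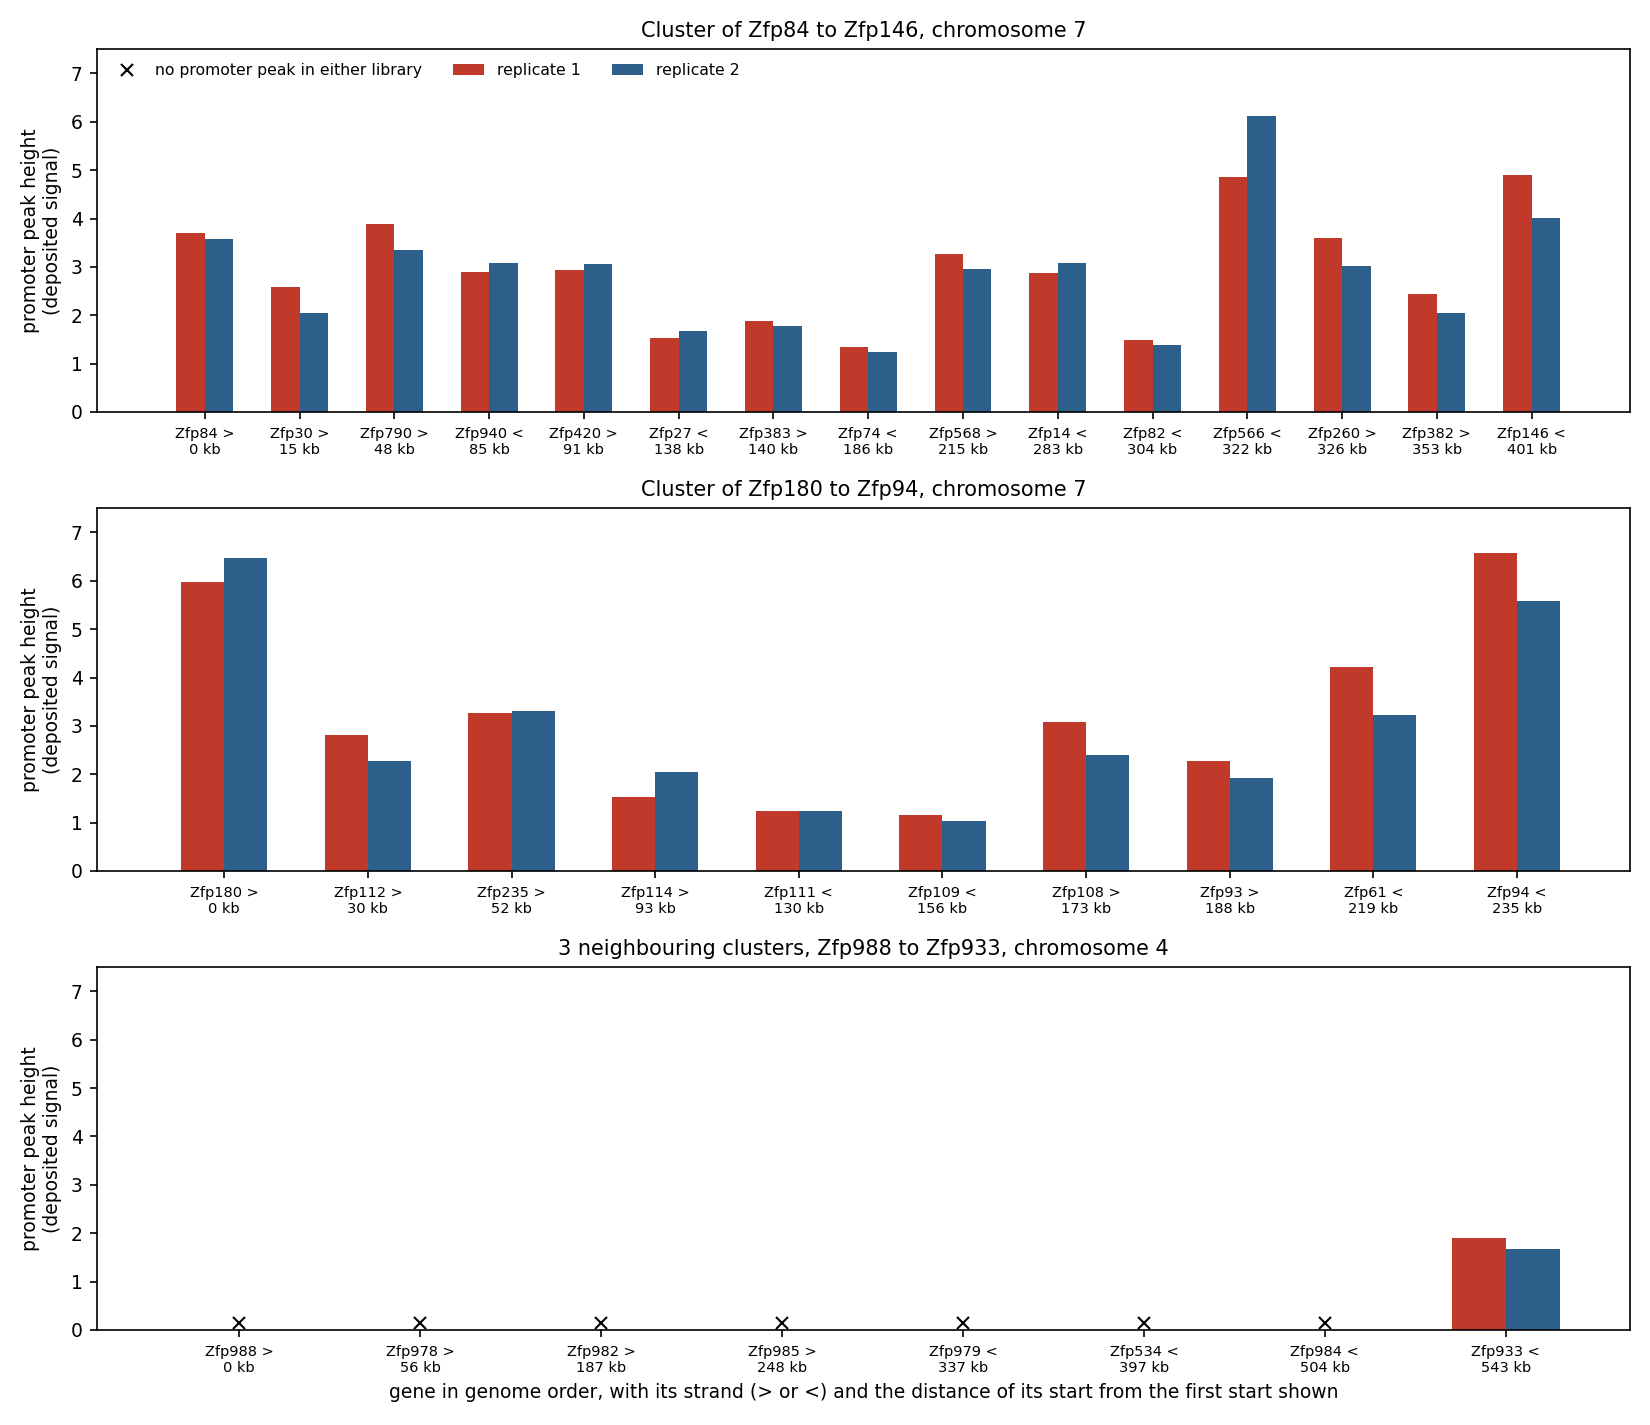
Promoter peak height (y axis, deposited signal) of each member of 2 clusters on chromosome 7 and 3 neighbouring clusters on chromosome 4, in genome order, with the distance of each start from the first start shown in kb, replicate 1 left of replicate 2. Every gene of both chromosome 7 clusters has a peak, and on chromosome 4 Zfp933 alone has one among the 8 genes shown.

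Members without a peak had repeated promoter sequence. The share of 31-base words in the 2 kb around the start that occur more than once in mm10 had a median of 4.26% in open members and 69.3% in members without a peak, and 18 of the 20 were at 45% or more. The exceptions were Zfp869 (25.3%) and Zfp853 (0%). A read no longer than such a word would have no unique place in the genome. The read length and the handling of such reads are not given in the sources used, so a closed promoter and one whose reads were not placed cannot be told apart for these 19 genes. Of the 128 members with under 10% repeated words, 126 (98.4%) were open in both libraries, against 88.9% of solitary Zfp genes and 67.9% of all autosomal genes in that range. Of the 26 members with 50% or more, 13 (50%) were open, against 17.6% of solitary Zfp genes and 10.9% of all autosomal genes. Repeated words were counted around the 5′ end of the gene record, but a peak near any annotated start makes a gene open. An open gene in these ranges can thus lack a peak in the window counted. With the 5′ end alone 169 members were open, against 177. Open members had a median height of 3.29 in the range under 1% and 1.43 in the range of 50% or more, against 3.17 and 1.41 for all open autosomal genes in these ranges. In the ranges between, which hold most members, they were lower than all genes, at 2.64 against 2.97 from 1% to 10% and 2.64 against 3.12 from 10% to 50%. From 10% to 50% the open share was 86.4% of members, 87.5% of solitary Zfp genes and 37.6% of all genes.

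Most of the same promoters were poor in CpG, with Zfp853 (0.48) as the richest of the 20. The ratio of observed to expected CpG in the window had a median of 0.485 in open members and 0.188 in members without a peak. This window too is that of the 5′ end of the gene record, while a peak near any annotated start counts as open. Below a ratio of 0.2, 3 of 15 members (20%) were open, against 2 of 11 solitary Zfp genes (18.2%) and 10.8% of all autosomal genes. Between 0.2 and 0.4, 55 of 62 members (88.7%) were open, against 62.5% of solitary Zfp genes and 38.8% of all autosomal genes. At 0.6 or more all 36 members were open, against 93.4% of solitary Zfp genes and 92.6% of all autosomal genes. To look at CpG apart from repeats, genes with a ratio below 0.4 and under 10% repeated words were taken. All 28 such members were open, against 12 of 20 solitary Zfp genes (60%) and 1705 of 5930 autosomal genes (28.8%). That combination was chosen after the data were seen.

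**Figure D3:**
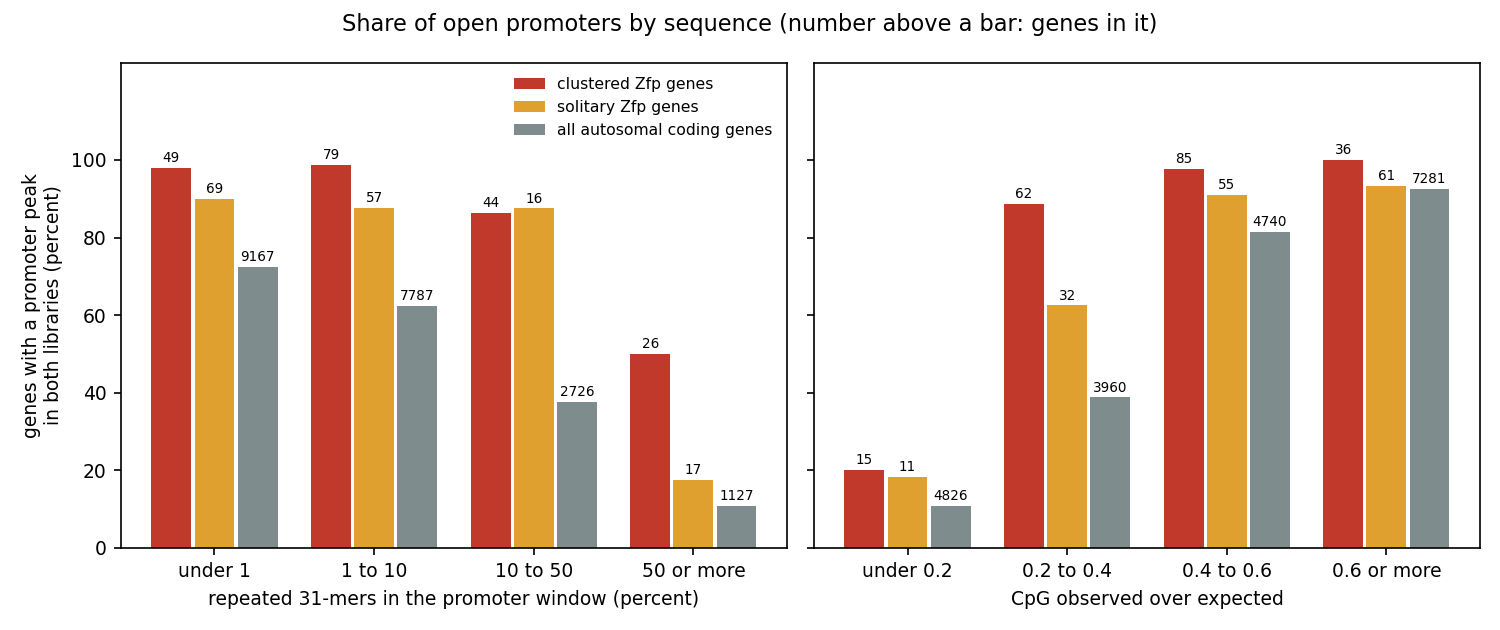
Percent of genes open in both libraries (y axis) by the share of repeated 31-base words (left panel) and by the CpG ratio (right panel). Each is taken in the window around the 5′ end of the gene record, while a peak near any annotated start counts as open. Clustered Zfp genes, solitary Zfp genes and all autosomal protein-coding genes are shown, with the number of genes above each bar. Clustered Zfp genes are open in 98.7% of cases from 1% to 10% repeated words and in 50% of cases from 50% upwards.

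Open chromatin of members was centred on the annotated start and narrow. At the first base of the gene record 73.7% of members lay inside a peak in replicate 1 and 73.2% in replicate 2, the highest of all positions from 2 kb before to 2 kb after. For all autosomal genes the highest share was 41.1% and 41.9%, 40 bp upstream. The shares at each distance count genes without a peak too. Open in both libraries were 89.4% of members and 60.8% of all genes. A shoulder followed downstream, where 21.7% and 24.2% of members were covered at 240 bp, against 11.1% and 14% of all genes. Upstream at the same distance the shares were 10.6% and 8.59% for members and 11.1% and 13% for all genes. Further downstream the order was reversed. At 600 bp, 5.05% and 6.06% of members were covered, against 9.27% and 11.6% of all genes. The tallest peak had a median width of 240 bp in replicate 1 and 260 bp in replicate 2, the same as for all open genes. A single promoter peak was found in 58.2% and 66.1% of open members, against 44.1% and 41.2% of all open genes.

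**Figure D4:**
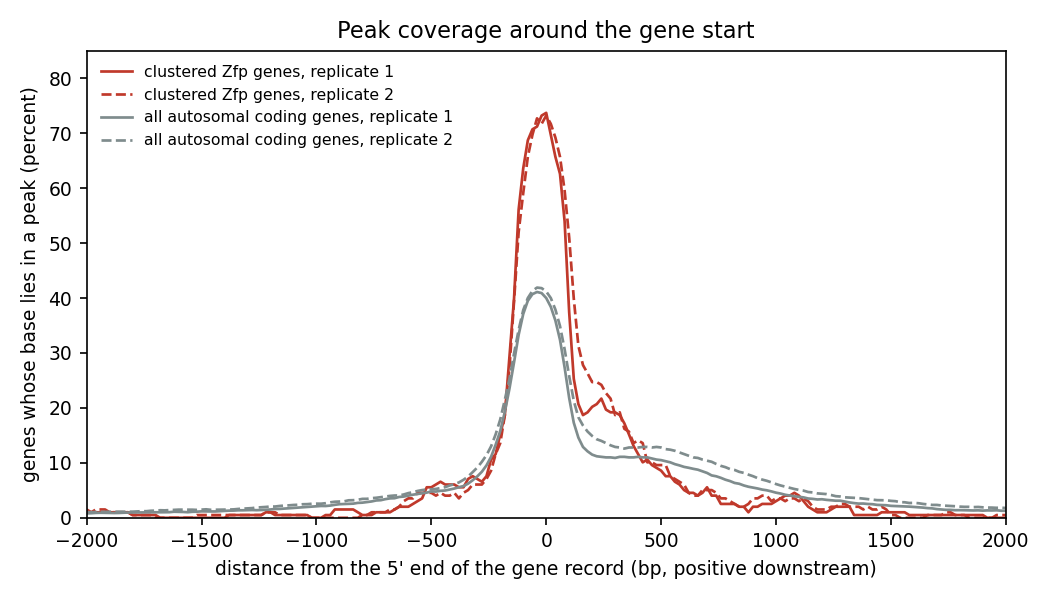
Percent of genes whose base at a given distance from the 5′ end of the gene record (x axis, bp) lies in a peak, for clustered Zfp genes and all autosomal protein-coding genes, in replicate 1 (solid) and replicate 2 (dashed). The members reach 73.7% and 73.2% at the start, and all genes 41.1% and 41.9% at 40 bp upstream. Genes without a peak are counted too.

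Neighbouring members rarely had the same tallest promoter peak. Of 146 neighbouring pairs, 26 were head to head, 95 lay on the same strand and 25 were tail to tail, and the median distance between their starts was 34100 bp. The same tallest peak served both genes in 4 pairs. Zfp944 and Zfp758 started 53 bp apart, Zfp942 and Zfp943 88 bp apart and Zfp646 and Zfp668 607 bp apart, all 3 head to head. In the fourth pair, Zfp935 and Zfp934, the gene records began 12688 bp apart on the same strand, and another annotated start lay near the shared peak. Zfp882 and Zfp617 began 27 bp apart on the same strand and were both open, but did not count as having the same tallest peak. Sharing of peaks other than the tallest was not counted. Both genes were open in 127 pairs and neither in 7, and in the other 12 pairs exactly 1 gene was open in both libraries.

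Footprints, short stretches of protected DNA inside open chromatin, were fewer per promoter of members than elsewhere, but no sparser per length of peak. Open members had a median of 4 footprints in replicate 1 and 5 in replicate 2, against 6 and 7 in solitary Zfp genes and 5 and 6 in all open genes. Per kb of promoter peak there were 13.5 and 14.4 footprints in members, against 11.9 and 12.9 in all open autosomal genes. The 855 footprints of replicate 1 overlapped a footprint of replicate 2 in 66.3% of cases, and the 955 of replicate 2 one of replicate 1 in 57.5%. For all genes these shares were 67.7% and 53%. Over both libraries together Zfp672 had the most, with 16 and 15, at heights of 5.88 and 6.11 (a mean of 3.65 with the 5′ end of the gene record alone, against 5.99). Zfp524 had 9 and 17, Zfp597 had 12 and 13, Zfp444 had 13 and 11 and Zfp180 had 14 and 9. At least 1 footprint was found in 172 of the 177 open members in replicate 1 and in all 177 in replicate 2.

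Of the 10 motifs searched, the site of Zfp143 is shown first because the share of member promoters lay furthest above that of all promoters, as a ratio. The 9 letters ACTACAATT, the core of the site bound by the zinc finger activator Zfp143 (human ZNF143), were found on either strand in 11 of 198 promoters (5.56%), taken as 250 bases before to 50 after the start. The share was 0.629% (1 of 159) in solitary Zfp genes and 0.524% (109 of 20807) in all autosomal genes. Of the 11 genes, 5 belong to the 10-gene cluster from Zfp180 to Zfp94, and whether these share their origin was not tested. The 30 bases around the match are shown for 10 of the 11 genes in mm10 on the strand that reads AATTGTAGT, the reverse complement of those letters, which are in capitals.
Zfp933: tggaatgctgggAATTGTAGTtctttggaa
Zfp128: tggccttctgggAATTGTAGTctcagtgtc
Zfp180: gagagttctgggAATTGTAGTtccattgag
Zfp235: acgcattctgggAATTGTAGTtccagcgcc
Zfp114: aagcattctgggAATTGTAGTtcccactcc
Zfp108: aggcattctgggAATTGTAGTtctggagcc
Zfp93: aggaattctgggAATTGTAGTtccaacgcc
Zfp454: gagccttctgggAATTGTAGTttcggccac
Zfp692: aagcctgccgggAATTGTAGTtagccttag
Zfp58: cagacttgtgggAATTGTAGTctggccact
They lie at chr4:147848430-147848459 (plus) for Zfp933, chr7:12881153-12881182 (plus) for Zfp128, chr7:24081865-24081894 (plus) for Zfp180, chr7:24134129-24134158 (plus) for Zfp235, chr7:24175018-24175047 (plus) for Zfp114, chr7:24254717-24254746 (plus) for Zfp108, chr7:24270337-24270366 (plus) for Zfp93, chr11:50887657-50887686 (minus) for Zfp454, chr11:58307012-58307041 (minus) for Zfp692 and chr13:67500533-67500562 (minus) for Zfp58. In 7 of the 11 the letters TTCTGGG stand directly before the match, in all 5 of the Zfp180 cluster and in Zfp128 and Zfp454. The middle of the match lay between 93 bp before and 9 bp after the start of the gene record. The letters AATTGTAGT, as shown above, ran with the gene in 8 genes and against it in Zfp992, Zfp933 and Zfp692. In replicate 1, 9 of the 11 matches lay in a peak and 7 touched a footprint, and in replicate 2, 10 lay in a peak and 6 touched a footprint. The match of Zfp992 lay in neither in either library, while that of Zfp933 lay in a peak and a footprint in both. A match is a description of letters and does not show binding.

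Other words were counted the same way. The ETS letters CCGGAAG were in 22.2% of member promoters, against 22% of solitary Zfp genes and 11% of all autosomal genes. The NRF1 letters GCATGCGC were in 7.58% of members, 3.14% of solitary genes and 3.45% of all genes. For the YY1 letters GCCATNTT the shares were 10.1% of members, 10.1% of solitary genes and 6.16% of all genes, and for the CRE letters TGACGTCA they were 4.04% of members, 3.14% of solitary genes and 2.43% of all genes. The CCAAT box was in 48% of members, including 18 of the 20 without a peak, against 42.1% of solitary genes and 38.6% of all genes. Among genes open in both libraries it was in 43.5% of members, 41.1% of solitary genes and 38.8% of all genes. Shares for the Sp/KLF letters GGGCGG were lower in members at 33.3%, against 49.1% of solitary genes and 43.7% of all genes. The TATA box letters TATAAA were in 7.07% of members, 6.92% of solitary genes and 12.7% of all genes, and the E-box CACGTG in 9.6% of members, 6.29% of solitary genes and 7.82% of all genes. The CTCF consensus was in 0 of 198 member promoters, 0 of 159 solitary ones and 119 of 20807 in all (0.572%). The stretch searched is that at the 5′ end of the gene record, while a peak near any annotated start counts as open. Among genes open in both libraries, the Zfp143 letters were in 5.65% of members and 0.672% of all genes. The ETS letters were in 20.9% and 16.3%, and the Sp/KLF letters in 32.2% and 59.8%. The TATA box letters were in 7.91% of open members and 7.31% of all open genes, so the lower share of members among all promoters was not seen there.

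**Figure D5:**
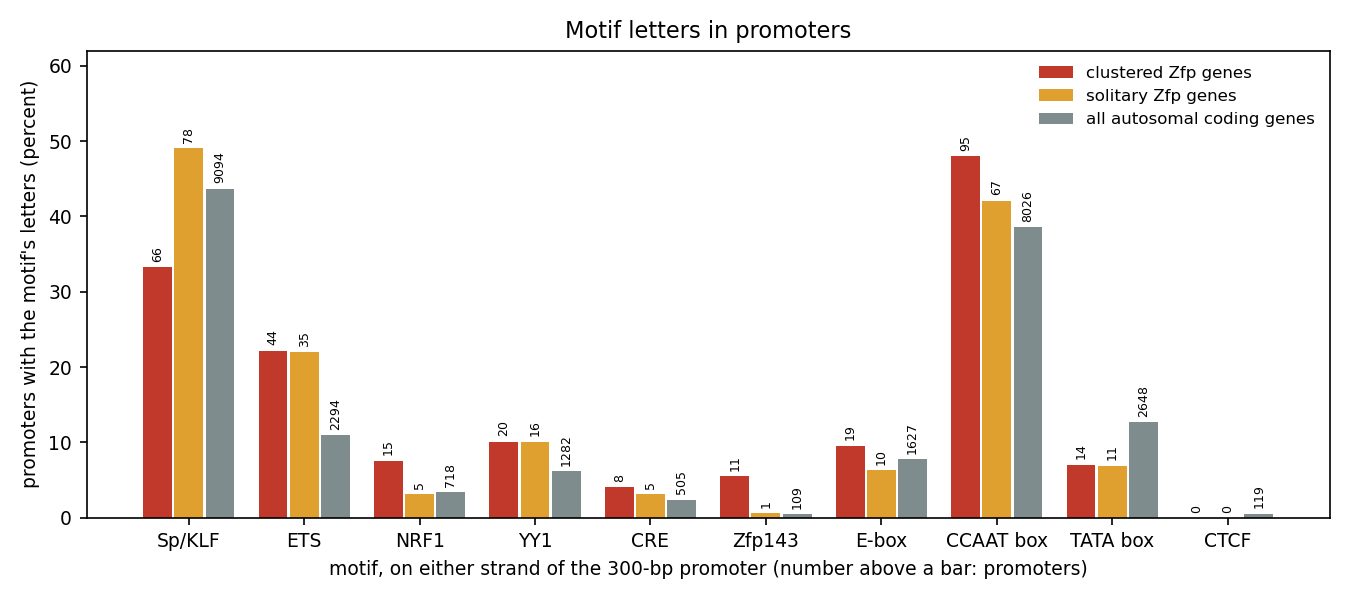
Percent of 300-bp promoters that hold the letters of each of 10 motifs on either strand (y axis), for clustered Zfp genes, solitary Zfp genes and all autosomal protein-coding genes, with the number of promoters above each bar. The letters of Zfp143 are in 11 promoters of clustered Zfp genes and 1 of solitary Zfp genes.

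Between the clustered genes few other sites were open. Within the 52 spans, more than 1 kb from every protein-coding start site, 51 regions had a peak in both libraries in 6220 kb, or 0.82 per 100 kb. Flanks of the same length on both sides of each cluster held 172 in 10500 kb (1.64 per 100 kb), and the autosomes 33863 (1.47 per 100 kb). Repeated 31-base words made up 29.2% of the cluster spans and 36% of the flanks. Single libraries gave 1.16 per 100 kb in replicate 1 and 1.17 in replicate 2 in clusters, against 2.05 and 2.65 in flanks. Counted outside all annotated protein-coding genes the density was 1.21 in clusters, against 1.53 in flanks and 1.34 on the autosomes, so part of the gap lay inside gene bodies. Such a region was found in 25 of the 52 clusters. Of the 51, 32 lay outside protein-coding genes, 12 in introns and 7 in exons. Of the same regions, 44 held a footprint in replicate 1, 44 in replicate 2 and 40 in both. Their median height was 1.12 in replicate 1 and 1.16 in replicate 2, against 0.931 and 0.851 for all such autosomal regions. The CTCF consensus was in 5 of them (9.8%), against 8.47% of all.

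The tallest region between clustered genes was at chr8:69716881-69717220, with 13.8 in replicate 1 and 12 in replicate 2, as tall as the tallest member promoter. It lay outside protein-coding genes, 6157 bp from the annotated start of Zfp869, a member with no promoter peak of its own. A lower region of 5.53 and 5.05 lay beside it at chr8:69716401-69716680. Its middle 200 bases, chr8:69716951-69717150 on the plus strand of mm10, hold 3 CG pairs, in capitals, and overlap no annotated exon.
Tallest region: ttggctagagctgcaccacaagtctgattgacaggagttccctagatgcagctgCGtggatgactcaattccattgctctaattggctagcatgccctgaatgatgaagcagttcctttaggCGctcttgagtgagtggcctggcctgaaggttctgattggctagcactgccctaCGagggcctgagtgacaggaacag
Of the 10 motifs it held the CCAAT box alone. The next tallest were at chr7:12949501-12949780 in the Zfp329 to Zfp446 cluster (8.66 and 7.86), at chr7:127254021-127254340 in an exon of Zfp771 (5.71 and 5.53) and at chr17:23592741-23592860 in an intron of Zfp13 (6.09 and 5.05).

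Genes of a list of KRAB zinc finger partners and other factors linked to silencing were open as well. All 22 autosomal genes of that list of 23 were open in both libraries, against the 60.8% of all autosomal genes. The list was chosen by hand, and its promoters were rich in CpG. Their median ratio was 0.744, against 0.486 for all autosomal genes. Of all autosomal genes with a ratio of 0.6 or more, 92.6% were open. Trim28, which binds the KRAB domain, had a height of 4.69 in replicate 1 and 5.38 in replicate 2, and Setdb1, which writes H3K9 trimethylation, 3.13 and 3.14. Mphosph8, a subunit of the HUSH silencing complex, had 11.3 and 12.3, and Morc3 12.6 and 11.9. The lowest was the DNA methyltransferase gene Dnmt3b, at 0.609 and 0.542.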

How the data were processed

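DNase-seq peaks, footprints and cut rate tracks were deposited per library and not pooled, all in mm10 per the labels, and the aligner and callers are not given in the sources used here. Peak height is the signal the authors gave each peak, on an unstated scale of its own in each library, and the longer of the 2 deposited peak lists per library was used. The deposited footprints carry the constant 0.01 and the deposited cut rate track lists bases with a false discovery rate (a q-value) below 0.05.

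Python 3.11.15, NumPy 2.4.6, SciPy 1.17.1, pandas 2.3.3, numba 0.67.0 and matplotlib 3.10.9 were used. Peaks within 1 kb of any annotated start of a gene (GENCODE M21, mm10) gave its promoter. A region was shared where peaks of the libraries overlapped by at least 1 bp, and a footprint likewise. Repeated sequence is the share of 31-base words, on either strand, that occur more than once in the RefSeq copy of mm10, in the window of 1 kb on each side of the 5′ end of the gene record. Sequences were read from that genome. Flanks are as long as the cluster on each side. Named are the 10 tallest and 6 lowest members, the 1 open in a single library, 10 without a peak and the 5 with most footprints. Also named are the ends of the 6 largest clusters, the 5 tallest regions between genes and a short list of members with a known role. The functions were tested on simulated data. Members and lists were chosen with earlier results of these data known, and 1 gene excluded by the choice and 1 promoter sequence are not reported here. With 1 group of 2 libraries there were no p-values. Alternatives were other windows, peak lists, linking distances and overlaps, and each library alone.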

Additional observations from a re-analysis of the deposited data

How the results depend on the processing

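With 2 libraries of 1 group, a value was set against the spread between the libraries. The count of open members was 177 with windows of 500 bp and of 2000 bp, where 59.2% and 63% of all autosomal genes were open. With 1 library left out it was 177 or 178, and the share of all autosomal genes was 62.3% to 63.5%. The 5′ end of the gene record alone and the shorter peak list each gave 169 open members, or 85.4%. Of all autosomal protein-coding genes, 55.9% were open with the 5′ end alone and 54.1% with the shorter list. The percent was 89.4 to 89.9 with 1 library left out, 88.2 for members whose peak lies in the window of no other protein-coding gene, 98.4 with under 10% repeated words, where the median height was 2.99, 96.1 with starts linked within 50 kb (152 members) and 85.8 within 200 kb (226 members). Regions between the genes per 100 kb were 0.804 with starts within 50 kb, 0.956 within 200 kb and 1.16 to 1.17 with 1 library left out. They were 0.707 with at least 0.5 of each peak overlapping (flanks 1.4), 0.703 with the starts of all annotated genes set apart (flanks 1.57), 0.531 with the shorter list (flanks 0.846) and 1.21 outside protein-coding genes (flanks 1.53), so clusters were below flanks under each of these. Median footprints were 4 to 5 with 1 library left out, and 42.4% of footprints were shared when 0.5 of each had to overlap, against 61.9% at 1 bp. The causes were not tested. Among 31 named open members, 2 heights moved by more than the SD of the libraries with the 5′ end alone. A peak was missing for 1 with the 5′ end alone and for 3 with the shorter list. The footprint lists give no strength and the heights no read depth, which limits how finely members can be ordered.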
